A study of Homo sapiens with 6 samples.

Results

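The genes described here encode enzymes that remove reactive aldehydes, electrophiles and peroxides, together with the regulators that switch many of them on. They were taken by a rule on gene symbols: the aldehyde dehydrogenases (ALDH), the glutathione S-transferases of the cytosol and mitochondria (GST) and of membranes (MGST), the aldo-keto reductases of the AKR1 family, the glutathione peroxidases (GPX), the transcription factor NRF2 (gene NFE2L2), its inhibitor KEAP1, and 6 NRF2 targets. In all, 61 of 19775 measured genes matched, and each was read from its brightest probe set (by the mean over the 6 arrays). Of the 61, 2 are antisense RNAs named after an ALDH gene (ALDH1L1-AS2 and ALDH1A2-AS1), and both were at the background level described below.

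RNA levels were read on Affymetrix U133 Plus 2.0 gene expression arrays. The SH-SY5Y group is a human neuroblastoma (NB) cell line that carries ALK F1174L, an activating mutation of the ALK receptor tyrosine kinase, and was grown without TAE684. The SY5Y-TR1 group, which carries the same mutation, is 1 subclone selected from SH-SY5Y cells for resistance to the ALK inhibitor TAE684, and was kept in 1 μM TAE684, so that the resistant state and the presence of the drug cannot be told apart. Each line was measured on 3 arrays that the labels call biological replicates. Because separate cultures are not described, the p-values measure the spread between these samples, which may be technical.

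Values are log2 RMA signals: the brightness of a probe set after background correction, quantile normalization and summarization by the authors, on a scale where a difference of 1 is 2-fold. A fold change is SY5Y-TR1 over SH-SY5Y. A gene was called when its Benjamini-Hochberg adjusted p from limma was under 0.05 and its fold at least 2, and only such a gene is said to rise or fall. No detection calls came with the values, so 6.36 was taken as the background level, which is the 90th percentile of the mean signals that 38 genes of unrelated tissues gave. Replicates of a line correlated at r = 0.997 to 0.998 across probe sets and the lines at 0.959 to 0.960, and 3 arrays a line limit the precision. Of 8 measured noradrenergic neuroblast markers, 7 lay above the background level on all SH-SY5Y arrays and 5 on all SY5Y-TR1 arrays, while TH, the first enzyme of catecholamine synthesis, was not above it in either. Of the 8, 5 fell in SY5Y-TR1, and the part of that shift in the results below was not tested. None of the Schwann, blood or endothelial markers lay above it on any array, and of 5 hepatocyte markers 1 did, TTR on 2 SY5Y-TR1 arrays (6.40 and 6.49). The hepatocyte marker APOB was also among the 38 genes that set the level, and such a marker is no independent check. In bulk RNA, fewer cells of a type and less RNA per cell cannot be told apart.

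As background, cells detoxify a reactive compound by oxidizing or reducing its carbonyl group (ALDH and AKR1) or by joining it to glutathione (GST and MGST). GPX enzymes reduce peroxides, many but not all of them with glutathione as the main donor. NRF2 is held by KEAP1 in the cytoplasm and degraded there. When electrophiles modify KEAP1, NRF2 protein accumulates and activates genes through the antioxidant response element, so NRF2 activity is set largely at the protein level. The core of that element reads TGACNNNGC on either strand, and it can contain the AP-1 site TGACTCA.

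The stretches before the starts of GCLM, NQO1, TXNRD1 and GSTP1 are shown because the first rose together with NQO1, whereas TXNRD1 and GSTP1 hold the same core and differed by less than 2-fold, in opposite directions. Each is the 250 bases before an annotated start, 5′ to 3′ on the strand of the gene, from RefSeq on GRCh38.p14. Capitals mark a match to the core on either strand.
GCLM (chr1:93909431-93909680, minus strand): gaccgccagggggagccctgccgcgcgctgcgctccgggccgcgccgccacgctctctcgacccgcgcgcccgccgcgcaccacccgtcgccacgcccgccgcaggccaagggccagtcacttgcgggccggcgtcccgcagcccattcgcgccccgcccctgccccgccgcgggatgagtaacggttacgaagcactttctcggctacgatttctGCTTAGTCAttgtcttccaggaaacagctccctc
NQO1 (chr16:69726561-69726810, minus strand): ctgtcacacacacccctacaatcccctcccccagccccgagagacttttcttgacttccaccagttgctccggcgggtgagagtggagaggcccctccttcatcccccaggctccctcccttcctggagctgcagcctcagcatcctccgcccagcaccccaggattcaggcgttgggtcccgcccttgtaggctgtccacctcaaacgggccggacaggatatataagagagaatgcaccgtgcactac
TXNRD1, a start (chr12:104215529-104215778, plus strand): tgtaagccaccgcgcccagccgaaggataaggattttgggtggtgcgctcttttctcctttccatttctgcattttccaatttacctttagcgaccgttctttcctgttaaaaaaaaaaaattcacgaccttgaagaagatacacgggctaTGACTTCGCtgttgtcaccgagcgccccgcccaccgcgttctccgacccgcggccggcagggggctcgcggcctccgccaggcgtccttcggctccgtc
TXNRD1, another start (chr12:104286782-104287031, plus strand): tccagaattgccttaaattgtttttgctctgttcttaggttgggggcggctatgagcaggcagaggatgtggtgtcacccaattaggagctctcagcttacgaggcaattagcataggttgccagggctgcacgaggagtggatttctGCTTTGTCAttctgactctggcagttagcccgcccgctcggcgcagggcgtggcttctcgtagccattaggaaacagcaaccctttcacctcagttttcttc
GSTP1 (chr11:67583562-67583811, plus strand): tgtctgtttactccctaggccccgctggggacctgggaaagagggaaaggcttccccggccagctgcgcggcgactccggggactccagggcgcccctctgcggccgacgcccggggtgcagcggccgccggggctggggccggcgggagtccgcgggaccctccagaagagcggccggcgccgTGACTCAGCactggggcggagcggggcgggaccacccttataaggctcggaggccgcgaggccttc

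Counted from the start, with -1 as the base before it, the matches begin at position -34 in GCLM, -99 and -102 in the stretches of TXNRD1 and -66 in GSTP1. A further match of TXNRD1 begins at -8 and runs past the start, so it is not in capitals. No match to the core stood in the NQO1 stretch, which says only that these letters are not in this window. Promoter windows of 300 bases (250 before to 50 after the start) were listed for 50 of the 61 genes. In these, 11 of 66 windows held the core (16.7%), belonging to 10 genes, against 4687 of 35116 windows of all genes (13.3%). The match in GSTP1 coincides with the AP-1 site, as it did in 197 windows of all genes. Among genes that rose and had a window, 1 of 3 windows held the core, and among those called neither way 10 of 60 did.

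SY5Y-TR1 cells had more RNA of 6 detoxification genes and less of 2 others. Those that rose were AKR1B10, GPX8, HMOX1, NQO1, GCLM and ALDH1L2, and those that fell were ALDH1A3 and AKR1C3. The 8 called genes are 13.1% of the 61, against 11.4% of all 19775 genes (5.36% higher and 5.99% lower), and 17.8% of the 45 members above the background level on at least 1 array, against 17.7% of all such genes. The share of called genes was therefore close to the background, and the count is not a result about detoxification genes as a class. The median log2 fold change was 0.18 over the 61 genes and 0.04 over all genes. The arrays of the lines did not overlap for 45 members, 31 higher and 14 lower in SY5Y-TR1. They did not overlap for 59.8% of all 19775 genes, 6438 higher and 5378 lower. Above the background level on at least 1 array, these were 41 of 45 members and 9589 of 11634 genes. An adjusted p under 0.05 from limma, at any fold, was found for 39 of the 61 members and 52.8% of all genes, with a median SD between replicates of 0.07 in each line. Of the 61, 16 lay at or under the background level on all arrays, as did 41.2% of all genes.

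**Figure D1:**
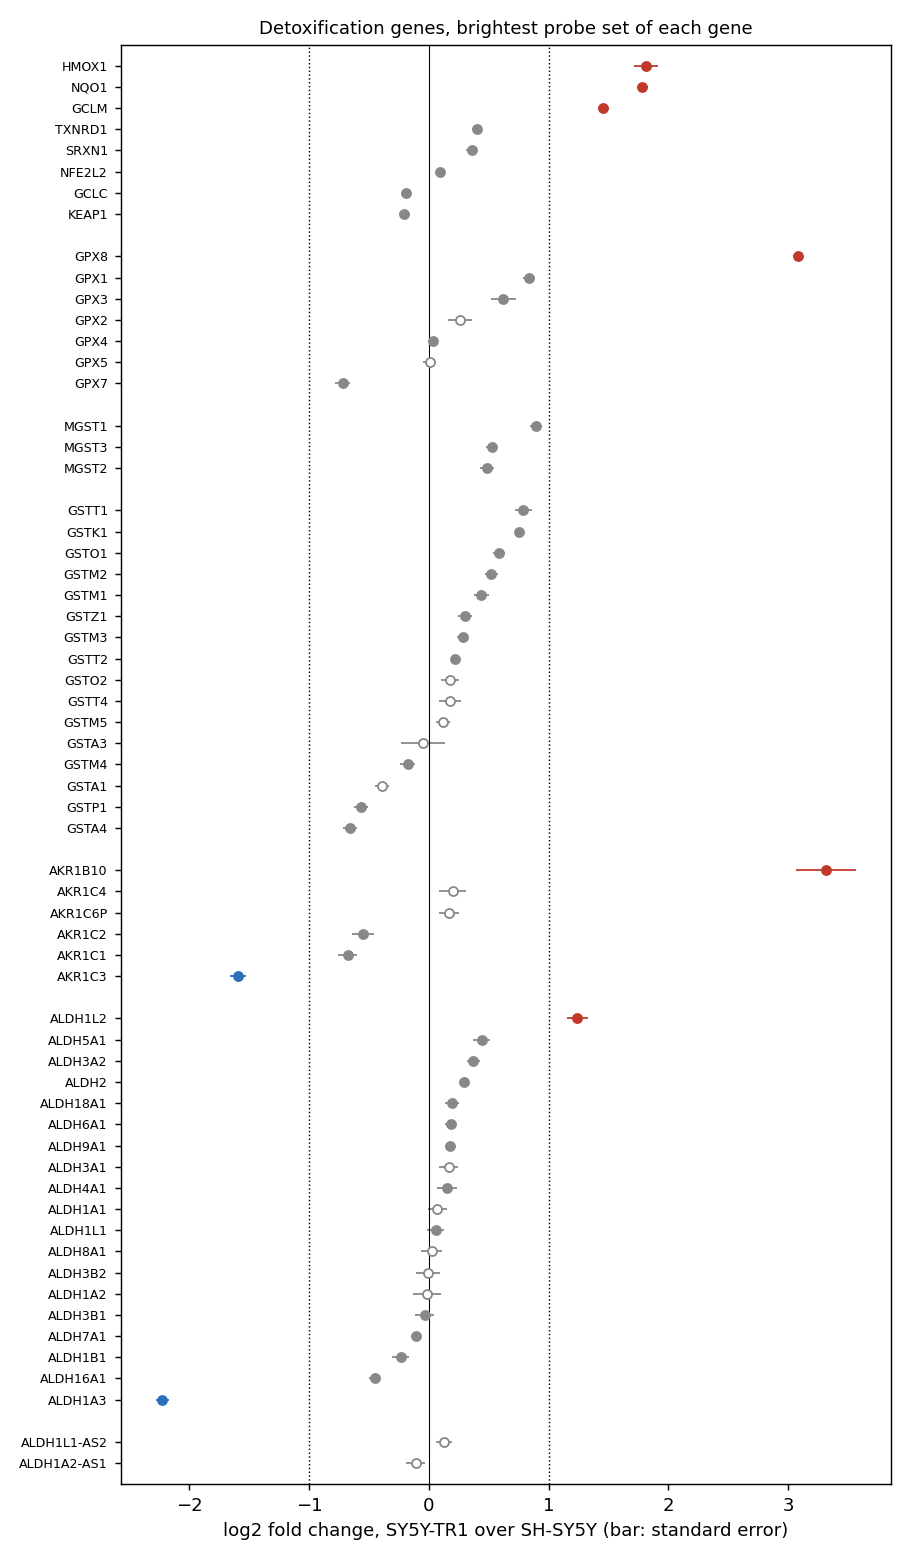
Log2 fold change (x axis, SY5Y-TR1 over SH-SY5Y) of each of the 61 genes by its brightest probe set, grouped by family (n = 3 arrays in each line); bars are standard errors, red genes were higher and blue genes lower, grey genes were not called, open symbols lay at or under the background level on all 6 arrays, and dotted lines mark 2-fold. Most genes lie between the dotted lines, AKR1B10 (fitted 3.31, from a background-level signal in SH-SY5Y, so at least 2.20-fold) and GPX8 (3.08) are farthest to the right and ALDH1A3 (-2.23) farthest to the left.

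Of the 8 genes of the NRF2 system, the regulators differed little and 3 of the 6 targets rose. Of all genes 5.36% rose. Called genes were 37.5% of these 8, all of them above the background level, against 17.7% of all genes above it. Among 27 other NRF2 targets and regulators, 3 rose and 2 fell (18.5% called, against 11.4% of all genes). Of these 27, 25 lay above the background level on at least 1 array, among them the 5 called. The 8 genes are few and were chosen with earlier results known. Their count is not a result about NRF2 targets as a class. NFE2L2 gave log2 signals of 11.57, 11.58 and 11.62 in SH-SY5Y and 11.70, 11.70 and 11.66 in SY5Y-TR1. Its difference of 0.10 (95% interval 0.00 to 0.19, adjusted p = 0.0866 from limma) did not pass, although the arrays of the lines did not overlap. The adjusted p moved between 0.00949 (limma with an intensity trend and robust variance) and 0.451 (limma on the mean of its probe sets) over the alternatives that keep all arrays, and the difference was far under 2-fold in each. KEAP1, the adaptor that presents NRF2 for degradation, read 10.14, 10.04 and 10.09 in SH-SY5Y and 9.90, 9.84 and 9.90 in SY5Y-TR1. Its log2 difference came to -0.21 (SE 0.05, limma adjusted p = 0.00753), far from the 2-fold limit.

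NQO1, which reduces quinones in a step that bypasses radical formation, read 10.91, 10.85 and 10.88 in SH-SY5Y and 12.72, 12.61 and 12.66 in SY5Y-TR1. It was 3.44-fold higher (log2 fold change 1.78, SE 0.05, limma adjusted p = 1.6e-07), and all 3 of its probe sets passed, with log2 fold changes of 1.78 to 1.88. HMOX1, the inducible heme oxygenase that breaks heme down to biliverdin, iron and carbon monoxide, read 6.83, 6.59 and 6.78 in SH-SY5Y, just above the background level, and 8.59, 8.35 and 8.69 in SY5Y-TR1. It was 3.51-fold higher (log2 fold change 1.81, SE 0.10, limma adjusted p = 6.16e-06) and was measured by 1 probe set. GCLM and GCLC encode the modifier and the catalytic subunit of glutamate-cysteine ligase, the enzyme that limits glutathione synthesis, and they differed in opposite directions. GCLM read 10.30, 10.30 and 10.38 in SH-SY5Y and 11.81, 11.80 and 11.74 in SY5Y-TR1, a 2.74-fold rise (log2 fold change 1.46, SE 0.05, limma adjusted p = 3.54e-07) that all 3 of its probe sets showed. GCLC read 9.50, 9.59 and 9.50 in SH-SY5Y and 9.34, 9.33 and 9.35 in SY5Y-TR1, a log2 fold change of -0.19 (SE 0.04, limma adjusted p = 0.00876), with its other probe set above the background level at -0.43. Every SY5Y-TR1 array was thus above every SH-SY5Y array for the modifier subunit and below for the catalytic subunit.

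The remaining targets belong to thiol repair. TXNRD1, the cytosolic thioredoxin reductase, read 12.05, 12.04 and 12.10 in SH-SY5Y and 12.47, 12.46 and 12.46 in SY5Y-TR1, a log2 fold change of 0.40 (95% interval 0.31 to 0.50). SRXN1, which reactivates overoxidized peroxiredoxins, read 10.05, 9.95 and 10.00 against 10.34, 10.33 and 10.41, a log2 fold change of 0.36 (95% interval 0.24 to 0.47). Both intervals lie wholly above 0 and wholly under the 2-fold limit, and the arrays of the lines did not overlap.

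**Figure D2:**
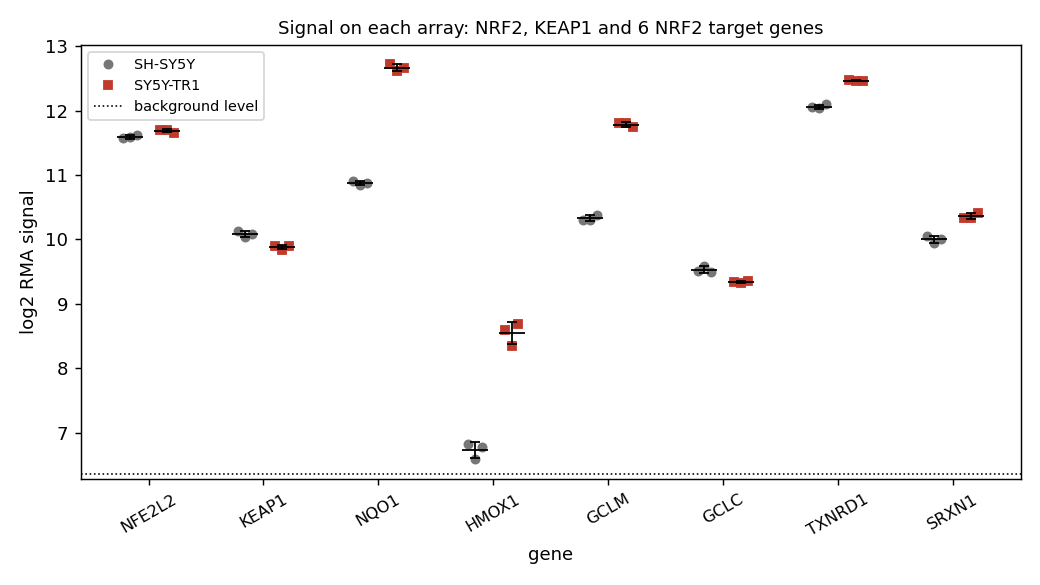
Log2 RMA signal (y axis) of NFE2L2, KEAP1 and 6 NRF2 targets on each of the 3 SH-SY5Y arrays (grey circles) and 3 SY5Y-TR1 arrays (red squares); black bars are the mean and SD, and dots mark the background level of 6.36. NFE2L2 lies near 11.6 in both lines, while NQO1 goes from 10.88 to 12.66, HMOX1 from 6.73 to 8.54 and GCLM from 10.33 to 11.78.

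Among 7 glutathione peroxidases, GPX8 stood apart. GPX8 encodes a membrane-anchored peroxidase of the endoplasmic reticulum. It read 8.89, 8.88 and 8.93 in SH-SY5Y and 12.03, 11.94 and 11.97 in SY5Y-TR1, so its replicates were close in both lines. It was 8.47-fold higher (log2 fold change 3.08, SE 0.04, limma adjusted p = 1.88e-08), and its other probe set gave a log2 fold change of 3.01. GPX7, the other peroxidase of that compartment, differed in the opposite direction, from 9.63, 9.58 and 9.55 to 8.97, 8.77 and 8.88. Its log2 fold change of -0.72 (SE 0.06, limma adjusted p = 4.65e-05) stayed under the 2-fold limit. GPX1, the abundant selenium enzyme of the cytosol, read 12.50, 12.38 and 12.44 in SH-SY5Y and 13.30, 13.24 and 13.30 in SY5Y-TR1. That difference of 0.84 (95% interval 0.72 to 0.95) also stayed under the limit. GPX1 was measured by 1 probe set, whose name marks shared sequence. GPX4, which reduces lipid peroxides in membranes and guards against ferroptosis, read 11.91, 11.90 and 11.88 against 11.96, 11.88 and 11.96, with overlapping arrays and a difference of 0.04 (95% interval -0.07 to 0.14, adjusted p = 0.541 from limma). Its sign turned when the arrays were quantile-normalized again (-0.014). GPX3, the secreted plasma form, lay under the background level in SH-SY5Y and at a mean of 6.75 in SY5Y-TR1, whereas GPX2 and GPX5 were at the background level in both lines.

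No glutathione transferase was called, but the brighter ones differed in both directions by less than 2-fold. All 3 membrane-bound enzymes read higher in SY5Y-TR1. MGST1, the microsomal transferase that also reduces lipid peroxides, came closest to the limit, from 11.37, 11.42 and 11.34 to 12.33, 12.23 and 12.26, a 1.86-fold difference (log2 fold change 0.89, 95% interval 0.78 to 1.01). The log2 fold changes of its other probe sets above the background level were 0.93 and 0.94. MGST3 read 11.83, 11.81 and 11.82 against 12.37, 12.26 and 12.39, a log2 fold change of 0.52, and MGST2 had one of 0.49. The other MGST3 probe set above the background level gave -0.04, and the mean of all its probe sets 0.19. Without probe sets named for shared sequence only dim ones were left, at 0.20 for MGST1 and 0.09 for MGST3.

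Of the 16 soluble GST genes, 11 were above the background level on at least 1 array. GSTP1, the pi-class enzyme that is abundant in many tumors, read 11.90, 11.83 and 11.82 in SH-SY5Y and 11.35, 11.17 and 11.32 in SY5Y-TR1, a difference of -0.57 (SE 0.06, limma adjusted p = 0.000141). GSTO1, an omega-class enzyme with thioltransferase activity, ran the other way at similar brightness, from 11.91, 11.88 and 11.85 to 12.52, 12.39 and 12.47 (log2 fold change 0.58, SE 0.05, limma adjusted p = 4.71e-05). GSTA4, the alpha-class enzyme that conjugates the lipid aldehyde 4-hydroxynonenal, had a log2 fold change of -0.66, but its other probe set gave -0.16. The mitochondrial GSTK1 had a log2 fold change of 0.76. GSTT1, a theta-class enzyme, lay under the background level on all SH-SY5Y arrays and at a mean of 7.04 in SY5Y-TR1, which is at least 1.59-fold higher. GSTM1 and GSTM2, with log2 fold changes of 0.44 and 0.52, were read by probe sets whose names mark shared sequence, so signal among these close relatives cannot be assigned with certainty. GSTA1, GSTA3, GSTM5, GSTO2 and GSTT4 were not above the background level on any array.

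The aldo-keto reductases split. AKR1B10, which reduces retinal and other aldehydes and is a known NRF2 target, read 4.78, 3.80 and 3.97 in SH-SY5Y, under the background level, and 7.65, 7.31 and 7.53 in SY5Y-TR1. It was at least 2.20-fold higher (fitted log2 fold change 3.31, SE 0.25, limma adjusted p = 2.68e-05). AKR1B10 was measured by 1 probe set, whose name marks shared sequence, so its signal cannot be assigned to this gene with certainty. AKR1C3, which reduces prostaglandins and steroids and has been described as an NRF2 target too, fell instead, from 8.90, 8.85 and 8.91 to 7.42, 7.18 and 7.27. It was 3.02-fold lower (log2 fold change -1.60, SE 0.07, limma adjusted p = 1.34e-06). Its close relatives AKR1C1 and AKR1C2 read lower as well, with log2 fold changes of -0.68 and -0.55 that stayed under the 2-fold limit. AKR1C1 gave 7.73, 7.45 and 7.49 in SH-SY5Y and 6.86, 6.91 and 6.85 in SY5Y-TR1, and AKR1C2 gave 6.56, 6.42 and 6.41 against 5.78, 5.87 and 6.10. Every SY5Y-TR1 signal of AKR1C2 lay under the background level, so the gene was at least 1.07-fold lower. With dim values raised to that level, its log2 fold change was -0.10. Both were read by probe sets that may share sequence, since the transcripts are near-identical, and without such probe sets only dim ones were left, at 0.24 for AKR1C1 and 0.042 for AKR1C2. AKR1C4 and the pseudogene AKR1C6P were at the background level.

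**Figure D3:**
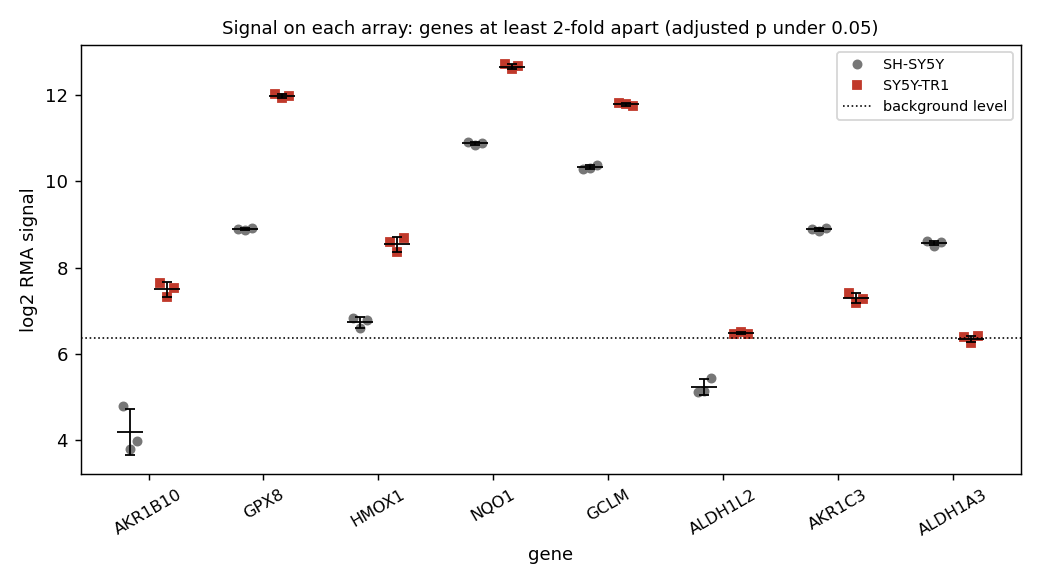
Log2 RMA signal (y axis) on each array of the 8 called genes, in order of log2 fold change; grey circles are the 3 SH-SY5Y arrays, red squares the 3 SY5Y-TR1 arrays, with their mean and SD in black, and a dotted line marks the background level (6.36). For each gene the arrays of the lines are separate; AKR1B10 and ALDH1L2 start under the dotted line in SH-SY5Y, and ALDH1A3 ends on it in SY5Y-TR1.

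Of 19 aldehyde dehydrogenases, ALDH1A3 fell, ALDH1L2 rose and 17 were not called. ALDH1A3 is 1 of the 3 enzymes that make retinoic acid from retinaldehyde and one of the genes behind the aldehyde dehydrogenase activity used to mark stem-like tumor cells. It read 8.61, 8.51 and 8.60 in SH-SY5Y and 6.38, 6.26 and 6.40 in SY5Y-TR1, 4.68-fold lower (log2 fold change -2.23, SE 0.06, limma adjusted p = 1.41e-07). The SY5Y-TR1 mean of 6.35 lay at the background level, so the fold is not exact. Its other probe set was dim in both lines, and the mean of both gave a log2 fold change of -0.93, under the 2-fold limit. The other 2 retinaldehyde enzymes, ALDH1A1 and ALDH1A2, were at the background level on all arrays, so a change in them was not detectable at this signal. ALDH1A3 was thus the 1 of these 3 genes above that level.

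ALDH1L2, the mitochondrial enzyme that oxidizes formyl-tetrahydrofolate and yields NADPH, read 5.12, 5.15 and 5.45 in SH-SY5Y and 6.47, 6.52 and 6.46 in SY5Y-TR1. Its fitted log2 difference came to 1.24 (SE 0.09, limma adjusted p = 2.27e-05), but both ends lay near or under the background level, the ratio to that level was at least 1.08-fold, and the other 2 probe sets did not pass. The brightest genes of the family that were not called were ALDH9A1, which acts on aminoaldehydes, and ALDH18A1, the first enzyme of proline synthesis. ALDH9A1 read 11.68, 11.64 and 11.59 against 11.81, 11.81 and 11.84, and ALDH18A1 read 10.34, 10.43 and 10.41 against 10.52, 10.67 and 10.56. Their log2 fold changes were 0.18 and 0.19. ALDH2, the mitochondrial enzyme for acetaldehyde, and ALDH3A2, which clears fatty aldehydes, had log2 fold changes of 0.29 and 0.37. The other members of the family above the background level ran from -0.45 for ALDH16A1 to 0.44 for ALDH5A1, the mitochondrial enzyme that ends GABA breakdown.

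ALDH3B1, an enzyme for lipid aldehydes, was the 1 member not called by its brightest probe set but called by others, and it was singled out after its values were seen. Its brightest probe set read 7.28, 7.18 and 7.10 in SH-SY5Y and 7.19, 7.01 and 7.26 in SY5Y-TR1, with a log2 fold change of -0.03. Of the other 2, one read 5.89, 5.56 and 5.95 against 7.78, 7.77 and 7.80 (log2 fold change 1.99, adjusted p = 3.62e-06 from limma over all probe sets). The last read 6.18, 6.63 and 6.49 against 7.81, 8.02 and 7.71 (log2 fold change 1.41, adjusted p = 7.48e-05 from limma over all probe sets). With the mean of all 3, ALDH3B1 passed as higher.

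**Figure D4:**
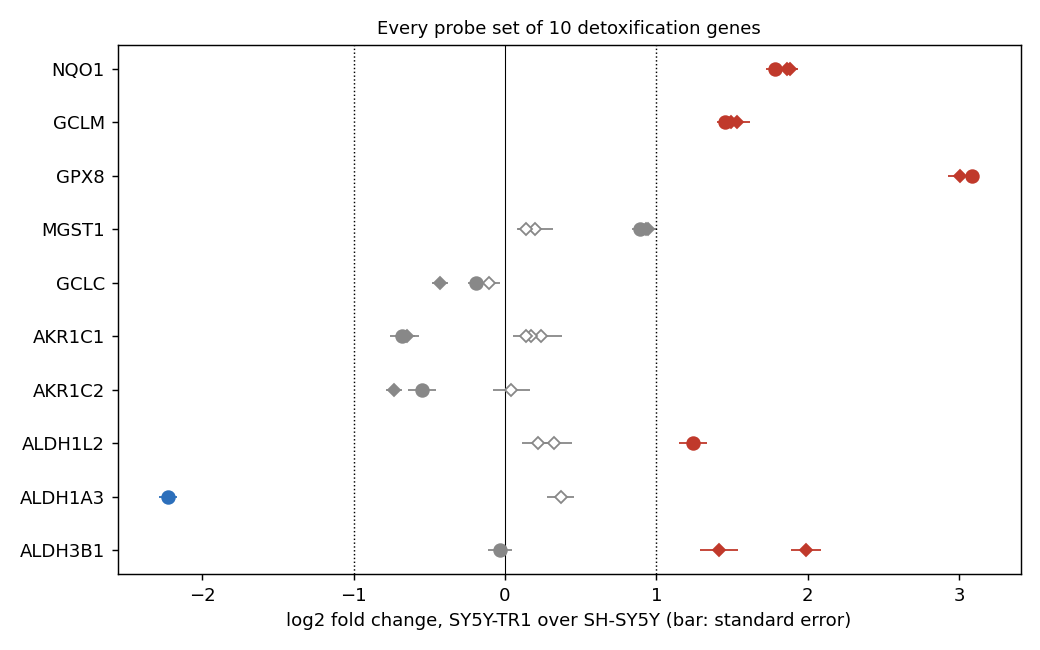
Change on the log2 scale (x axis, SY5Y-TR1 relative to SH-SY5Y) for all probe sets of 10 genes (n = 3 arrays in each line), with standard errors as bars; circles are the brightest probe set of a gene, diamonds the others, open symbols lay at or under the background level on all 6 arrays, red passed as higher, blue as lower, grey was not called, and dotted lines mark 2-fold. The probe sets of NQO1, GCLM and GPX8 lie together, whereas those of ALDH3B1, ALDH1A3 and ALDH1L2 lie on both sides of a dotted line.

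Other genes of glutathione, thioredoxin, NADPH and NRF2 biology were taken from a list of 69, of which 63 were measured. In it 5 were higher, 4 lower and 54 not called. The 9 called genes are 14.3% of the list, near the 11.4% of all genes, and the median log2 fold change of the list was 0.16. Among NRF2 targets and regulators other than the members, ABCC3, an export pump for glutathione and glucuronide conjugates, rose most. It read 7.22, 7.06 and 7.28 in SH-SY5Y and 10.61, 11.00 and 10.71 in SY5Y-TR1, a 12.1-fold rise through 3 of 5 probe sets (log2 fold change 3.59, SE 0.11, limma adjusted p = 3.06e-07). BLVRB, a flavin and biliverdin reductase, rose 3.53-fold, and SQSTM1, an autophagy receptor that binds KEAP1, rose 2.16-fold through 2 of 5 probe sets but was not called by their mean. FTL, the light chain of ferritin, stayed under the limit by its brightest probe set (log2 fold change 0.86), while 1 of its 2 probe sets passed as higher.

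The supply side of glutathione was mixed. SLC7A11, the cystine importer whose product feeds glutathione synthesis, read 7.24, 7.14 and 7.33 in SH-SY5Y and 8.63, 8.79 and 8.80 in SY5Y-TR1, a 2.84-fold rise (log2 fold change 1.51, SE 0.07, limma adjusted p = 2.66e-06) through 2 of 3 probe sets. SLC3A2, its partner chain, had a log2 fold change of -0.12 (adjusted p = 0.174 from limma). GLRX, a glutaredoxin that removes glutathione from proteins, sat at the limit with a 2.00-fold rise and was lost without SH-SY5Y replicate 2 or without SY5Y-TR1 replicate 1. CBS, the first enzyme of the route from homocysteine to cysteine, fell 3.10-fold (log2 fold change -1.63), and IDH2, a mitochondrial source of NADPH, fell 3.05-fold (log2 fold change -1.61). PIR, an NRF2 target that encodes the iron-binding protein pirin, fell 2.03-fold, and BACH2, a relative of the NRF2 competitor BACH1, was at least 1.62-fold lower. PIR was lost with arrays centred on housekeeping genes, and BACH2 without SH-SY5Y replicate 1 or without SY5Y-TR1 replicate 2, and with dim values raised to the background level. The recycling enzyme GSR had a log2 fold change of -0.12 (adjusted p = 0.125 from limma), and none of the 4 superoxide dismutase and catalase genes was called (log2 fold changes -0.11 for CAT, 0.16 for SOD1 and 0.26 for SOD2, with SOD3 at the background level). When probe sets named for shared sequence were left out, PIR, read by 1 probe set, had none left. ABCC3, SQSTM1, CBS and BACH2 were then not among the called genes, whereas ME1, a source of NADPH in the cytosol, was.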

How the data were processed

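RNA of both lines was read on Affymetrix U133 Plus 2.0 arrays, 3 for each line. The deposited values are log2 signals, which the authors obtained by RMA (Expression Console is the program in the submitters' processing notes, version not given in the sources used here). Since RMA had normalized the arrays together, that step could not be varied from scanner signals.

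Without the 62 control probe sets, 54613 remained, of which 41091 carried 1 gene symbol, 1801 several and 11721 none in the platform annotation. By gene ID, 41037 of the first matched a RefSeq table (GRCh38.p14), the source of names and promoter sequences alone. Another 2 probe sets named a member beside another gene and were not used. The 61 members had 114 probe sets. The comparison used lmFit and eBayes of limma 3.58.1 under R 4.3.3, with p-values adjusted by Benjamini-Hochberg over all 19775 genes, and the fit was tested on simulated data. Values of single probe sets come from a fit over all probe sets. Where the dimmer line had no array above the background level, the fold is at least the ratio of the brighter mean to that level. The paper names GenePattern and a two-sided t-test, so the methods' t-test was an alternative.

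Named genes were all called members, NFE2L2, KEAP1 and 6 targets, the 2 brightest members not called of each other family, members with a log2 fold change of 0.8 to 1.2 in size, and the 4 largest called increases and decreases of the pathway list. Other genes are named after their values were seen, GLRX and ALDH3B1 among them. The members and lists were chosen with earlier results of these data known. Alternatives are given in the closing section.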

Additional observations from a re-analysis of the deposited data

How the results depend on the processing

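The fold limit, and not the test, set these calls: all 2245 genes past 2-fold also had an adjusted p under 0.05, the largest being 0.00319 with limma, 0.0117 with the replicate block, 0.0051 with an intensity trend and robust variance, 0.0311 with the methods' t-test and 0.00334 over all probe sets. These settings therefore could not move a count of calls, and their agreement says nothing about stability. With no fold limit, 27 members were higher and 12 lower, and 34 and 12 pathway genes, where 52.8% of all genes were called. At a limit of 1.5-fold the counts were 11 and 5 members, and 12 pathway genes higher, where 21.9% of all genes were called.

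When the probe sets of each gene were averaged, 1 member was lower, since ALDH1A3 did not pass (log2 fold change -0.93), and ALDH3B1 replaced ALDH1L2 (0.59) among those higher. ALDH1L2 did not pass with dim values raised to the background level either (0.12). Without probe sets named for shared sequence, 50 of the 61 members were left, and NQO1, AKR1B10 and GPX1 were among those without a probe set. In that setting 1 pathway gene was lower, and AKR1C1 (0.24) and AKR1C2 (0.042) changed sign. GPX4 changed sign with quantile normalization applied again (-0.014). Leaving out each array in turn gave 6 members higher and 2 lower every time, 4 to 5 pathway genes higher and 3 to 4 lower. Centring on 19 measured housekeeping genes moved the median of all genes from 0.04 to 0.08. Of 207 fold changes of 23 named members that an alternative changed at all, 201 kept their direction and side of the threshold.

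The labels do not say whether replicate numbers pair samples across the lines. Deviations of same-numbered samples correlated at 0.00020, 0.02 and 0.03, and those of other pairs at -0.07 to 0.05. With so few arrays, these values cannot decide it. With the replicate block, 6 members were higher and 2 lower, and 5 and 4 pathway genes, and for the reason above this could not have differed.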
